A study of Mus musculus with 15 samples.

Results

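RAW 264.7 cells that had been cultured with RANKL for 5 days were compared with RAW 264.7 cells cultured with RANKL for 4 days, by the RNA signal of 12422 probe sets on Affymetrix arrays. The comparison takes 4 of the 15 arrays of the series, chosen by their titles: 2 arrays of RANKL cells at day 5 and 2 of RANKL cells at day 4. RAW 264.7 is a mouse macrophage-like line, so all arrays come from 1 line. Growth medium was alpha-MEM with FBS. On day 0 and again on day 3 the cells received serum-free medium, with RANKL or without it. The labels call the RANKL cells of both days multi-nuclear. Arrays set beside them are 2 of RANKL cells at day 2, called mononuclear, 1 of control cells at day 5 and 2 of control cells at day 4; control cells had the same medium without RANKL and are called mononuclear. Nothing in the labels says that replicate arrays come from separate cultures. The p-values therefore measure the spread between these arrays, which may be technical. The number of arrays limits the precision of every value.

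RANKL is a cytokine that binds the receptor RANK on cells of the macrophage lineage and turns them into osteoclasts, the cells that resorb bone. The transcription factor Nfatc1 drives this change, in which cells fuse and then make the proton transport and the secreted enzymes that dissolve mineral and collagen. Late in the culture the fused cells take on their resorbing form, and the question of the comparison is which RNAs change in the last day.

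The cells carried osteoclast RNA at both days, by most of the markers that could be read. Acp5, tartrate-resistant acid phosphatase, had signals of 9370.5 and 12283 in day 5 RANKL cells, against 6187 and 8863 in day 4 RANKL cells, and 43.5 in control cells at day 5. Ctsk, cathepsin K, which digests bone collagen, had 5915 and 7481 at day 5, against 2703 and 3585 at day 4. Both genes had higher signals on each day 5 array than on either day 4 array. Yet neither difference passed the test (Acp5 0.53 ± 0.36 on the log2 scale, adjusted p = 0.652; Ctsk 1.09 ± 0.26, adjusted p = 0.103; limma with Benjamini-Hochberg adjustment, standard error after ±). Mmp9, a gelatinase of osteoclasts, had 8824 and 4929 at day 5, against 4576 and 3379 at day 4, and Nfatc1 had 3981 and 6460.3, against 3075 and 4291. Their changes of 0.74 ± 0.51 and 0.48 ± 0.37 did not pass. The Mmp9 and Nfatc1 differences turn to the other sign when an RNA quality measure, described further on, is a covariate. Calcr, the calcitonin receptor, and Itgb3, the integrin beta 3 chain, are defining markers of mature osteoclasts and were dim, with signals of 27.2 and 3.95 and of 12.9 and 10.7 at day 5, against 1.77 and 5.16 and 11.8 and 31.2 at day 4. Dcstamp, a fusion gene, is not represented by a probe set here.

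Between day 4 and day 5 a set of macrophage and lysosomal genes fell in RANKL cells, while some genes of cell division, of low-oxygen response and of resorption rose. The F4/80 gene Adgre1 fell 4.12-fold and the carbonic anhydrase gene Car2 rose 3.00-fold. In all, 79 of 12422 probe sets passed an adjusted p of 0.05, 28 higher and 51 lower at day 5, which is 0.636% of those tested. They represent 23 genes that rose (0.279% of the 8251 genes represented) and 42 that fell (0.509%). The median change over all probe sets was 0.05 on the log2 scale. In bulk RNA of a culture, fewer cells of a type and less RNA per cell cannot be told apart.

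The size of this list depends on the fit. When the ratio of 3' to 5' signal of beta-actin was added as a covariate, 0 probe sets passed in limma (970 at an unadjusted p under 0.05, against 1456 without it). That ratio rises as RNA loses its 5' ends. It was 1.08 and 1.02 on the day 5 arrays, against 1.18 and 1.34 on the day 4 arrays, so it moves with the day and its part in the results cannot be told apart from that of time. A fit on the 4 arrays alone also gave 0 (1162 at an unadjusted p under 0.05), and so did a fit on the 7 RANKL arrays (1176). Each array weighed on the count, which was 181 without day 5 replicate 1, 30 without day 5 replicate 2, 37 without day 4 replicate 1 and 14 without day 4 replicate 2. All 65 genes kept their direction in each of these fits, and in each of the others tried, in which they were tested. There were 14 such fits, 1 of them without the dimmer 50% of probe sets, and a gene passed in 1 to 11 of them. The 65 genes had been chosen for their change on the same arrays, so their kept direction is no independent support.

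**Figure D1:**
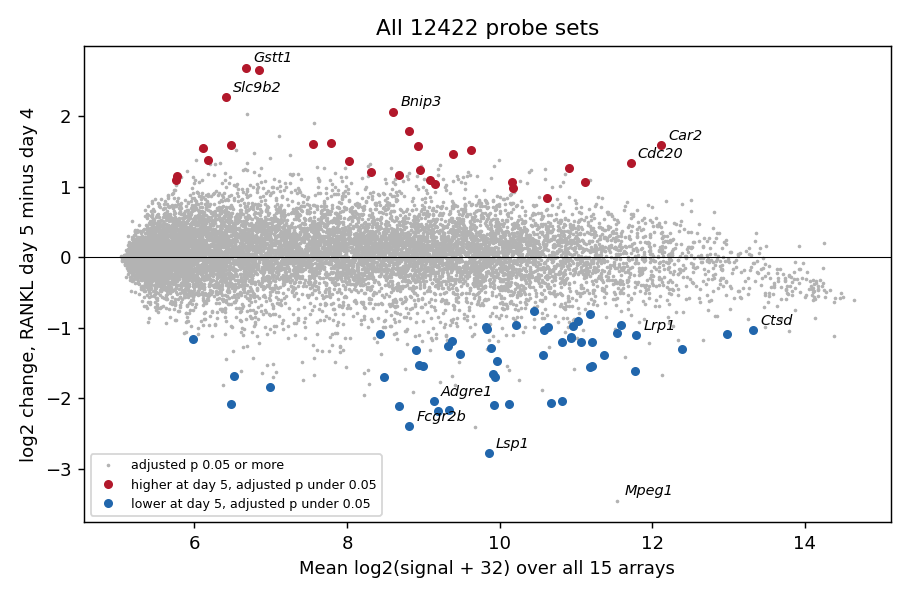
Change between day 4 and day 5 in RANKL cells (vertical axis, log2 difference, day 5 minus day 4) against the mean log2(signal + 32) over all 15 arrays (horizontal axis), for 12422 probe sets. Red points are the 28 probe sets that passed as higher at day 5, blue points the 51 that passed as lower and grey points all others; Mpeg1 has the lowest change of a represented gene and did not pass.

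The promoters of 5 genes from the groups that follow show what lies just before their starts. They were chosen after the values were seen, from groups in which more than 1 gene passed: cell division, low-oxygen response and the lysosome. All 5 hold a searched motif, so they do not stand for the other genes that passed. Among the genes not shown, Adm, Lipa and Tk1 hold none of the motifs searched in their groups. The sequences are from RefSeq, build GRCm38.p6, minus strand, 250 bases before the first listed start, written 5′ to 3′. Capitals mark the letters of a searched motif on either strand: TTTGAA (the CHR element) and CCAAT, which reads ATTGG on the other strand, in Cdk1 and Cdc20; ACGTG (the core of hypoxia response elements) in Bnip3; and TCACGTGA (the centre of the CLEAR element of lysosomal genes) in Ctsd and Dpp7. The windows are chr10:69352913-69353162 for Cdk1, chr4:118437344-118437593 for Cdc20, chr7:138909507-138909756 for Bnip3, chr7:142387828-142388077 for Ctsd and chr2:25356333-25356582 for Dpp7.
Cdk1: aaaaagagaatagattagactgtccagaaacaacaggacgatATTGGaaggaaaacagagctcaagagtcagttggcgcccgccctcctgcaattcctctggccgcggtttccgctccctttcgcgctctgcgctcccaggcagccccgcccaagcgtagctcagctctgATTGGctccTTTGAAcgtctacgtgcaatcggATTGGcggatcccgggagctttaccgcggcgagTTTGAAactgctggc
Cdc20: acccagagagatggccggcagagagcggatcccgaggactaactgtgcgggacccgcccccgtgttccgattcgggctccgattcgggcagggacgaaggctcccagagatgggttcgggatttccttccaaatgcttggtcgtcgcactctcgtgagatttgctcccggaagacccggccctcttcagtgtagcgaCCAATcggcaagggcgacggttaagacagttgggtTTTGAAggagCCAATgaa
Bnip3: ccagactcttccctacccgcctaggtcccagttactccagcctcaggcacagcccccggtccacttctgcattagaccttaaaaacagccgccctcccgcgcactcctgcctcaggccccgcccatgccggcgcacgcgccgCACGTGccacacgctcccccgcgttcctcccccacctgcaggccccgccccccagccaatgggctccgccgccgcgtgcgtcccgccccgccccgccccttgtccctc
Ctsd: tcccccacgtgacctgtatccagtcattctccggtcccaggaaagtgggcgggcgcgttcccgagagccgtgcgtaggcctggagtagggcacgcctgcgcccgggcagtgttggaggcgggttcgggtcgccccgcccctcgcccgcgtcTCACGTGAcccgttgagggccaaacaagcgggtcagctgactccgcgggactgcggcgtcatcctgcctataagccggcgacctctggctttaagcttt
Dpp7: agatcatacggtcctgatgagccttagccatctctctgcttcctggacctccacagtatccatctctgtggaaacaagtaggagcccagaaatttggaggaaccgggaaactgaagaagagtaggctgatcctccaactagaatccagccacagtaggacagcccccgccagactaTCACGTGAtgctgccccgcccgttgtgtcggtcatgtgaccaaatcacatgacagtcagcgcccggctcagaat
TTTGAA begins 71 and 15 bases before the start of Cdk1 and 18 bases before that of Cdc20. The CCAAT letters begin 208, 80 and 48 bases before the start of Cdk1, and 53 and 8 bases before that of Cdc20. Of the 5 cell division genes that rose (Aurka, Cdc20, Cdk1, Rrm2 and Tk1), 2 hold TTTGAA and 4 hold CCAAT in this window, against 16.3% and 34.5% of 27025 promoters. In Bnip3 the ACGTG matches on the 2 strands overlap in the letters CACGTG, 108 bases before the start. ACGTG is in 1 of the 2 low-oxygen response genes that rose (Bnip3, not Adm), against 16.6% of promoters. TCACGTGA is in 1 of the 2 lysosomal list genes that fell (Ctsd, not Lipa), against 0.803% of promoters. Dpp7 holds it as well, but it is not on the lysosomal list and adds nothing to that count. Other genes that fell outside the list are not counted here. A match describes these letters and is not a measured binding site.

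Several macrophage genes were among the falls that passed in most of the fits. Adgre1, the F4/80 receptor that marks macrophages, had signals of 272 and 215 in day 5 RANKL cells, against 1178 and 1024 in day 4 RANKL cells. Both day 5 arrays lay far below both day 4 arrays, a change of -2.04 ± 0.18 (adjusted p = 0.00152, the lowest of all probe sets together with 1 of Igf1). Fcgr2b, the inhibitory IgG receptor, had 218 and 118 at day 5, against 927 and 1049 at day 4 (-2.39 ± 0.25, adjusted p = 0.00176). Lsp1, an actin-binding protein of leukocytes, had 155 and 203, against 1920.0 and 1026, and gave the largest fall of a represented gene that passed (-2.78 ± 0.28, adjusted p = 0.00176); its other probe set also passed. Adgre1, Fcgr2b, Lsp1 and the secretory kinase gene Fam20c (-2.07 ± 0.25) were the 4 genes lost only in the covariate fit and in the fits on 4 and 7 arrays.

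Other immune receptor genes fell with them. Pirb, an inhibitory immunoglobulin-like receptor, had 221 and 182 at day 5, against 636 and 824 at day 4 (-1.70 ± 0.21, adjusted p = 0.00556). Clec4d, a C-type lectin receptor of myeloid cells, had 1244 and 1235, against 3791 and 3897 (-1.61 ± 0.26). Itgax, the CD11c integrin chain, had 678 and 363, against 1297 and 1744 (-1.54 ± 0.29). In each of the 3 genes the day 5 and day 4 arrays did not overlap. Cd300c2 (-1.47), the Toll-like receptor chaperone gene Unc93b1 (-1.29) and the ATP-gated channel gene P2rx4 (-1.08) also fell.

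Of 35 represented genes of the macrophage marker list, 3 fell (Adgre1, Fcgr2b and Clec4d) and 0 rose, against 0.509% and 0.279% of all genes. Changes were negative for 32 of them, with a median of -0.51, against 0.05 for all genes represented. On 17 both day 5 arrays were below both day 4 arrays, which is 48.6% of the list, against 16.8% of all genes. Mpeg1, a pore-forming protein of macrophages, had 2649 and 225 at day 5, against 9910.5 and 8266 at day 4. The 2 day 5 arrays were both below day 4 but far from each other, and the change of -3.45 ± 0.73 did not pass (adjusted p = 0.0699). C3ar1, a complement receptor, had 243 and 70.0, against 785 and 453 (-1.91 ± 0.40, adjusted p = 0.0664). Csf1r, the receptor of the macrophage growth factor, had 6261 and 7731, against 9776 and 10956, and Itgam, the CD11b chain, had 474 and 279, against 1154 and 590.0. Their changes of -0.57 ± 0.20 and -1.12 ± 0.32 did not pass, and another probe set of Csf1r had the opposite sign.

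Genes of endocytosis and of the lysosome made up another part of the falls. Dab2, an adaptor that loads receptors into clathrin-coated pits, had 197 and 89.2 at day 5, against 1160.2 and 389.7 at day 4 (-2.09 ± 0.40, adjusted p = 0.0447). The 2 day 4 arrays of Dab2 differed by more than the nearest arrays of the 2 days, and 1 of its other probe sets had the opposite sign. Lrp1, a large endocytic receptor, had 3192 and 3019, against 6625 and 6845 (-1.11 ± 0.19, adjusted p = 0.0394). Smpdl3a, a phosphodiesterase related to acid sphingomyelinase, had 462 and 576, against 1949 and 2660.2 (-2.08 ± 0.25, adjusted p = 0.00556). The aspartic protease gene Napsa (-1.56) and the dipeptidyl peptidase gene Dpp7 (-0.98) fell too.

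Of 40 lysosomal list genes, 2 fell and 0 rose, against 0.509% and 0.279% of all genes. Ctsd, cathepsin D, had 7452 and 6563 at day 5, against 14529 and 14139 at day 4 (-1.03 ± 0.20, adjusted p = 0.0447). Lipa, lysosomal acid lipase, had 1422 and 2488, against 4280.1 and 5769 (-1.39 ± 0.26, adjusted p = 0.0435). Both genes were lower on each day 5 array than on either day 4 array. Over the list, 34 changes were negative with a median of -0.41. On 27 genes (67.5%, against 16.8% of all genes) both day 5 arrays lay below both day 4 arrays. Ctsb, cathepsin B, had 11845 and 7758, against 19468 and 20271, on its brightest probe set (-1.05 ± 0.23, adjusted p = 0.0858). Its 2 dimmer probe sets passed as lower (-1.54 ± 0.20 and -1.66 ± 0.30). Legumain, the asparaginyl endopeptidase Lgmn, had 1420.5 and 1384, against 2777 and 3031 (-1.03 ± 0.23, adjusted p = 0.0833). The arrays of the 2 days did not overlap in Ctsb or Lgmn.

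Further falls were of mixed function. Anxa3, an annexin, had 202 and 91.2 at day 5, against 731 and 673 at day 4 (-2.11 ± 0.31). Vwf, von Willebrand factor, had 58.1 and 21.6, against 213 and 321 (-2.08 ± 0.31), and Rell1, of the RELT family, had 24.0 and 5.70, against 86.2 and 154 (-1.69 ± 0.32); these 2 genes were dim at day 5. Lyl1, a helix-loop-helix transcription factor of blood cells, had 1198 and 356, against 3084 and 2535 (-2.03 ± 0.39, adjusted p = 0.0442), with day 5 replicate 1 nearer to day 4. Egr2, an early response transcription factor, had 971 and 740.4, against 1732 and 2484 (-1.26 ± 0.22, adjusted p = 0.0394). Zfp36l2, which promotes mRNA decay, had 1856 and 1219, against 4122 and 4772 (-1.54 ± 0.23); 1 of its other probe sets had the opposite sign. Slfn2 was the 1 gene of 44 interferon-response genes that passed, with 2863 and 1703, against 5516 and 5482 (-1.30 ± 0.24). Of all genes, 0.509% passed as lower.

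Of 17 cell fusion genes, 3 fell and 0 rose, against 0.509% and 0.279% of all genes. Sirpa, the surface ligand of CD47 that takes part in macrophage fusion, had 2681 and 1876 at day 5, against 4379 and 5216 at day 4 (-1.08 ± 0.20). Cd37 and Cd151 encode tetraspanins, membrane proteins that organise other surface proteins. Cd37 had 1878 and 1947, against 3279 and 3453 (-0.81 ± 0.15), and Cd151 had 549 and 513, against 961 and 1273 (-1.02 ± 0.18). None of the 3 genes had overlapping arrays, but 2 other probe sets of Cd151 had the opposite sign. The list's median was -0.35, and 9 of its 17 genes (52.9%, against 16.8% of all genes) had both day 5 arrays below both day 4 arrays. In control cells the list's median was -0.23, with 11 of 17 changes negative. The RANKL change less the control change had a median of -0.20, and 0 genes of the list passed the test of it.

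Among the resorption genes, 2 of 16 rose and 0 fell, against 0.279% and 0.509% of all genes. Car2, carbonic anhydrase II, which supplies the protons that osteoclasts secrete, had 9261 and 11754 in day 5 RANKL cells, against 3830.0 and 3119 in day 4 RANKL cells. Both day 5 arrays were far above both day 4 arrays (1.58 ± 0.19, adjusted p = 0.00556). The day 2 RANKL arrays, with 7221 and 7518, were also above both day 4 arrays. Slc9b2, a sodium-proton exchanger of osteoclasts, had 237 and 775 at day 5, against 63.3 and 66.0 at day 4 (2.27 ± 0.43, adjusted p = 0.0435). Day 5 replicate 2 was far above replicate 1 in Slc9b2, and its call held in 1 of 13 alternative fits. The list's median was 0.35, with 11 of 16 changes positive, and on 7 genes both day 5 arrays lay above both day 4 arrays (43.8%, against 24.5% of all genes). Ctsk was the nearest gene of the list outside the threshold. Src, a kinase needed for the ruffled border, had 245 and 255 at day 5, against 172 and 65.3 at day 4 (1.00 ± 0.54, adjusted p = 0.515). Of 15 V-ATPase subunits 0 passed, with a median of -0.15, and Tcirg1, the osteoclast a3 subunit, had 3776 and 3636, against 5355 and 7419 (-0.76 ± 0.21).

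Several other rises were of genes that act on the cytoskeleton, on signalling or on detoxification. Scin, scinderin, which severs actin filaments, had 500.3 and 874 at day 5, against 169.7 and 220.3 at day 4 (1.62 ± 0.30, adjusted p = 0.0435). Rgs16, which shuts off G-protein signals, had 1223 and 1628, against 389 and 381 (1.79 ± 0.27, adjusted p = 0.0157). Mras, a small GTPase of the Ras family, had 143 and 231, against 55.4 and 46.5 (1.38 ± 0.26). In all 3 genes the day 5 arrays were above the day 4 arrays without overlap. Gstt1, a glutathione transferase, gave the largest rise of a represented gene, with 250.0 and 638 at day 5, against 51.5 and 22.4 at day 4 (2.69 ± 0.40, adjusted p = 0.0157). Matn2, the matrix protein matrilin 2, had 134 and 129, against 22.0 and 22.4 (1.59 ± 0.31), and its call held in 2 of 13 alternative fits. Gstt1 and Matn2 belong to the 6 of 23 genes that rose whose day 4 mean was under 100, where the size of a log2 change depends on the pseudocount.

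Single genes of low-oxygen response and of mitochondria rose as well. Bnip3, a receptor for the removal of mitochondria that is induced by low oxygen, had 910.4 and 1015 at day 5, against 137 and 302 at day 4 (2.06 ± 0.29, adjusted p = 0.0116). Adm, the peptide hormone adrenomedullin, had 81.0 and 56.8, against 7.45 and 19.3 (1.15 ± 0.21, adjusted p = 0.0435), all dim. The call of Adm held in 2 of 13 alternative fits, in which its change ran over 0.57 to 2.39. Bnip3 and Adm were the 2 of 19 low-oxygen response genes that rose, against 0.279% of all genes, around a list median of 0.25. Ak4, a mitochondrial adenylate kinase, had 295 and 294, against 83.2 and 68.5 (1.60 ± 0.27), and Chchd10, a protein of the mitochondrial intermembrane space, had 1961 and 3023, against 927 and 679.5 (1.58 ± 0.25, adjusted p = 0.0229). They were the 2 of 18 energy buffering and mitochondrial biogenesis genes that passed, where 0.279% of all genes passed as higher. The median of that list was 0.0055, with 10 changes positive. Of 62 oxidative phosphorylation genes 0 passed (median 0.17). The mitochondrial protein gene Fam162a had 742 and 740.3, against 312 and 351 (1.09 ± 0.21), and its call held in 2 of 14 alternative fits. Of 23 glycolysis genes 0 passed; Pfkl, a phosphofructokinase, was the nearest with 2673 and 4061, against 1742 and 1328 (1.10 ± 0.23, adjusted p = 0.072).

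Genes of cell division had positive changes on nearly the whole list, and 5 of them passed. Cdc20, which activates the anaphase-promoting complex, had 3133 and 4330.2 at day 5, against 1484 and 1397 at day 4 (1.34 ± 0.17, adjusted p = 0.00775). Cdk1, the kinase that starts mitosis, had 1535 and 2477, against 831 and 762 (1.26 ± 0.23), and Aurka, a spindle kinase, had 904 and 1227, against 413 and 575 (1.06 ± 0.21). These were the 3 of 39 mitosis genes that passed, where 0.279% of all genes passed as higher. Of the 39 changes 38 were positive, and the median was 0.74. On 35 genes (89.7%, against 24.5% of all genes) both day 5 arrays lay above both day 4 arrays. Of 41 DNA replication genes, Tk1, thymidine kinase, with 1797 and 2566, against 1108 and 920.1 (1.07 ± 0.20), and Rrm2, a ribonucleotide reductase subunit, with 1055 and 1365, against 567 and 623 (0.98 ± 0.18), passed. On that list 38 changes were positive around a median of 0.55, and 28 genes (68.3%, against 24.5% of all genes) had both day 5 arrays above both day 4 arrays. Mybl2, a transcription factor of cell cycle genes, had 541 and 1172, against 267 and 273 (1.46 ± 0.27), and Rcc1, the exchange factor of the GTPase Ran, had 1119 and 966, against 387 and 303 (1.52 ± 0.23, adjusted p = 0.0178). Nucleotide and repair genes Shmt1 (1.16), Prps1 (0.84) and Ube2t (1.24) also rose. The proliferation marker Mki67 had 982 and 1022, against 488 and 985, with overlapping arrays, and its change of 0.51 ± 0.40 did not pass.

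**Figure D2:**
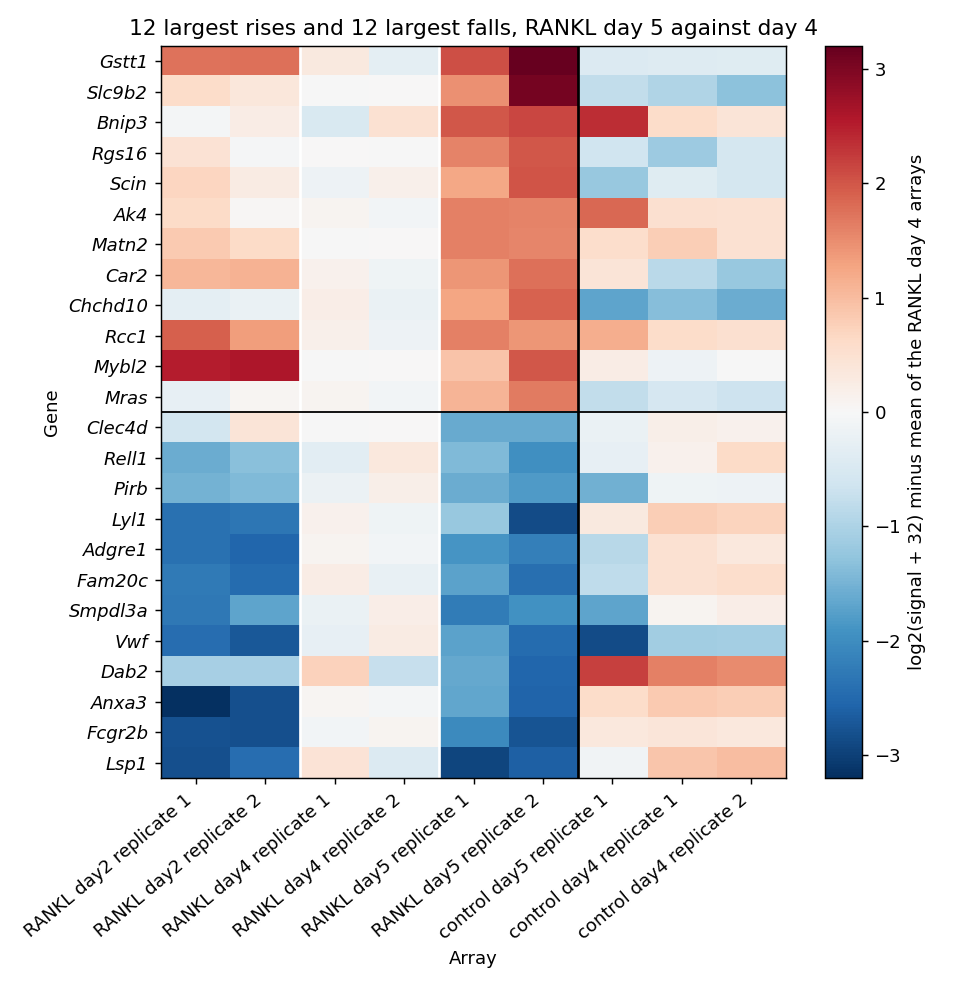
Signals of the 12 largest rises (upper rows) and the 12 largest falls (lower rows) between day 4 and day 5 in RANKL cells, as log2(signal + 32) minus the mean of the 2 RANKL day 4 arrays (colour, in log2 units), on each array of RANKL cells at days 2, 4 and 5 and of control cells at days 5 and 4. Red is above and blue is below the day 4 RANKL mean; the falling genes are blue on both day 2 and both day 5 RANKL arrays, except Clec4d on day 2 replicate 2.

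Several genes that fell at day 5 had also been low at day 2. Adgre1 had 182 and 162 at day 2, 1178 and 1024 at day 4 and 272 and 215 at day 5. Fcgr2b had 116 and 114 at day 2, 927 and 1049 at day 4 and 218 and 118 at day 5. Ctsd had 5588 and 7602 at day 2, 14529 and 14139 at day 4 and 7452 and 6563 at day 5. In these genes the day 4 arrays stood above those of both other days. The cell division genes had the opposite shape: Cdc20 had 6064 and 5677 at day 2, 1484 and 1397 at day 4 and 3133 and 4330.2 at day 5, and Mybl2 had 1704 and 1775, 267 and 273 and 541 and 1172 at the same 3 days. Car2 was also lowest at day 4 and was highest at day 5. It had 7221 and 7518 at day 2, 3830.0 and 3119 at day 4 and 9261 and 11754 at day 5. Slc9b2, Scin and Gstt1 were likewise lowest at day 4 and highest at day 5. List medians of day 4 minus day 2 were -0.99 for mitosis, -1.10 for DNA replication, 0.65 for lysosome and 0.56 for macrophage markers, against 0.74, 0.55, -0.41 and -0.51 for day 5 minus day 4. Both comparisons use the same day 4 arrays, so a deviation of those arrays enters the 2 with opposite sign and a return at day 5 is not shown by them alone. In other genes day 5 was the highest day and the day 4 mean lay above that of day 2. Chchd10 had 631 and 686 at day 2, 927 and 679.5 at day 4 and 1961 and 3023 at day 5. Ctsk had 1051 and 1309.6, 2703 and 3585 and 5915 and 7481 at these days.

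Control cells, cultured without RANKL, were used to ask whether the change was tied to RANKL. They have 1 array at day 5 against 2 at day 4 and share no array with the RANKL comparison. Car2 had 4592 in control cells at day 5, against 1886 and 1482 at day 4, and Bnip3 had 1185, against 327 and 287. Both genes were thus higher at day 5 without RANKL too. Smpdl3a had 686, against 2422 and 2649, and Adgre1 had 574, against 1554 and 1405, both lower at day 5. Of the 42 genes that fell in RANKL cells 36 had a negative change in control cells (median -0.60), and of the 23 that rose 16 had a positive one (median 0.29), while 42.4% of all genes had a positive change there. Only 5 probe sets passed in control cells (0.0403%), among them Ccl2, Adm and the phosphatase gene Acp1, all higher.

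The difference between the 2 changes was tested in the same model, and 1 probe set passed (0.00805% of 12422; 1230 at an unadjusted p under 0.05). It was Ccl2, a monocyte chemokine, and it is not among the 65 genes. None of the 65 was shown to change differently with RANKL and without it. Large differences that did not pass were those of 3 genes: Gstt1, at 17.9 in control cells at day 5 and 19.0 and 19.5 at day 4, gave 2.73 ± 0.63 (adjusted p = 0.351), Dab2 gave -2.71 ± 0.63 (adjusted p = 0.351) and Fcgr2b gave -2.36 ± 0.39 (adjusted p = 0.2). Dab2 had 3186 in control cells at day 5, against 2142 and 1989 at day 4, and Fcgr2b had 1252, against 1306 and 1263. In control cells the Dab2 signal was thus higher at day 5 and that of Fcgr2b about level, where both fell in RANKL cells. List medians in control cells were 0.57 for mitosis, -0.31 for macrophage markers, -0.23 for lysosome, 0.61 for low-oxygen response and 0.59 for glycolysis. For DNA replication the control median was 0.14, with 27 of 41 changes positive, against the 0.55 in RANKL cells, and for the resorption genes it was 0.06, against 0.35. The difference between the 2 changes had a median of 0.38 over DNA replication and 0.36 over resorption genes, against 0.10 over all genes represented. Over mitosis genes it was 0.14, with 27 of 39 positive. It was -0.28 over low-oxygen response, -0.32 over glycolysis, -0.26 over macrophage markers and -0.23 over lysosome. In each of these lists 0 genes passed the test of this difference.

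**Figure D3:**
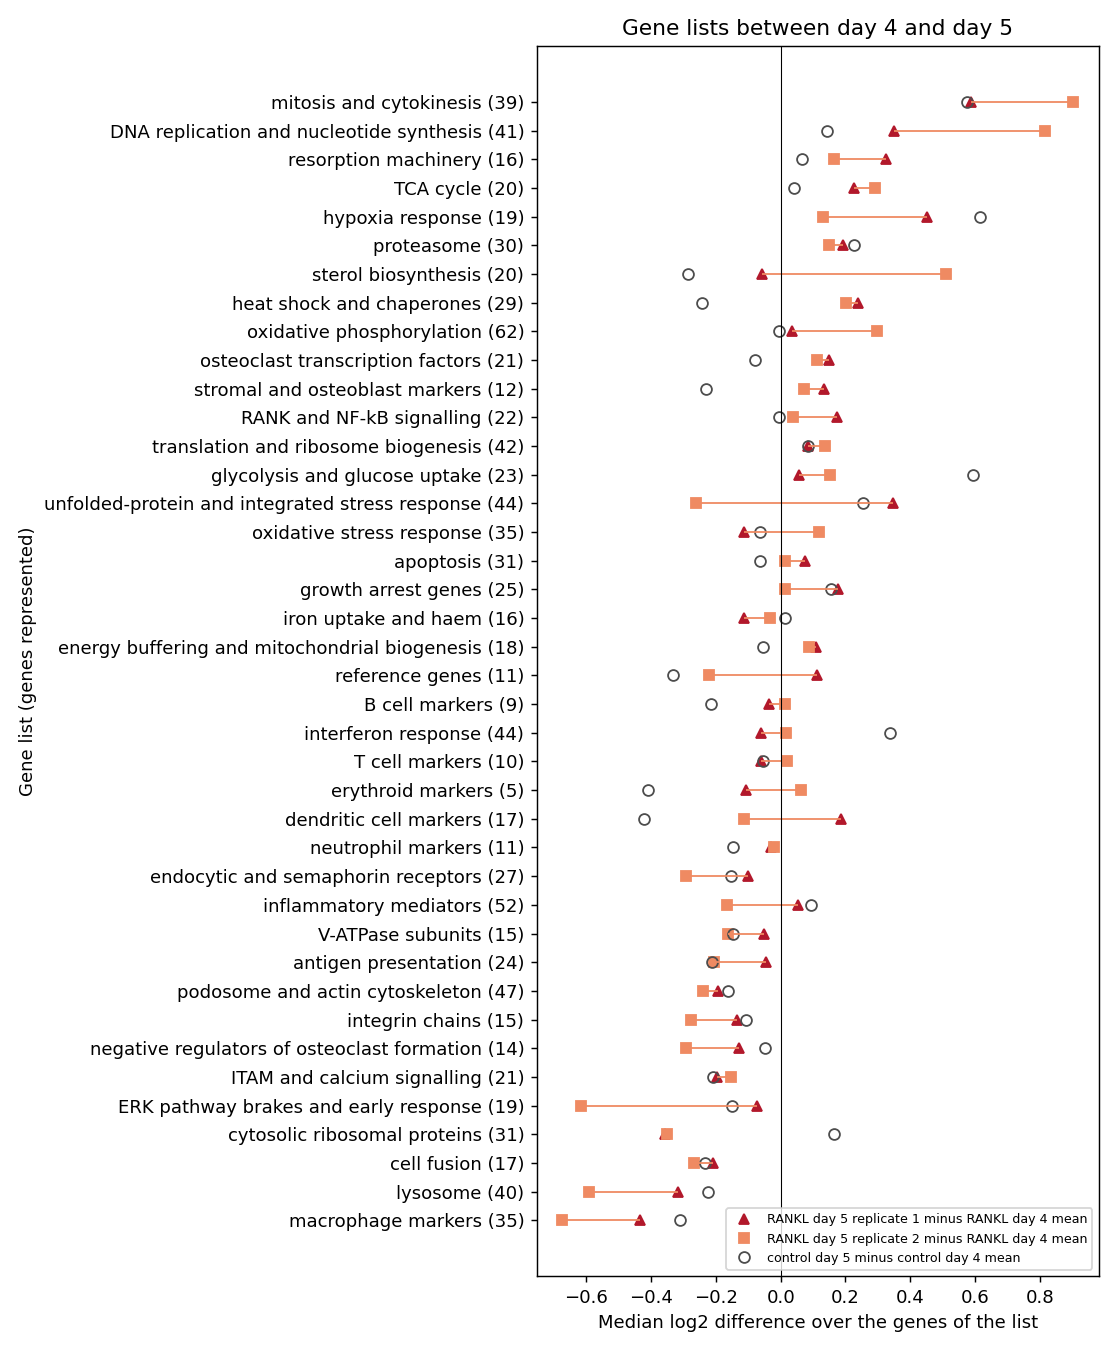
Median log2 difference over the represented genes of each of 40 lists (horizontal axis; number of genes in brackets), for RANKL day 5 replicate 1 and replicate 2 (red triangle and orange square, joined by a line), each minus the mean of the 2 RANKL day 4 arrays, and for the control day 5 array minus the mean of the 2 control day 4 arrays (open circle). Macrophage markers and lysosome lie below 0 and mitosis and DNA replication above 0 for all 3 symbols. The 2 RANKL replicates lie on opposite sides of 0 for several lists, among them the stress response list, sterol biosynthesis and the reference genes (0.11 and -0.22).

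The 2 day 5 arrays disagreed on a limited set of genes. Over all probe sets their median absolute difference was 0.23 (log2), against 0.26 between the RANKL day 4 arrays, 0.27 at RANKL day 2 and 0.21 to 0.24 in 3 control groups. Large differences between bright probe sets were most numerous at RANKL day 5. Among the brighter 50% of probe sets, 238 differed by over 2-fold at RANKL day 5, of which 189 were higher in replicate 1, against 82 to 200 in the other 5 pairs of replicates.

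Chemokine genes and a stress gene were among the 6 named as higher on replicate 1. Cxcl2, a neutrophil chemokine, had 4067 on replicate 1 and 83.6 on replicate 2, while the day 4 arrays had 3364 and 1071. Ccl4, another chemokine, had 2205 and 190.0, and Nfkbiz, a regulator of NF-kB target genes, had 771 and 56.8. Trib3, a stress-induced pseudokinase, had 985 and 78.8, and the cytochrome oxidase subunit gene Cox6a2 had 769 and 25.4. Mpeg1, given above, was the sixth gene of this direction. In the other 5 genes replicate 1 lay within or above the range of the day 4 arrays, and replicate 2 lay below it. Over the 44 genes of the unfolded-protein and integrated stress response list the median of replicate 1 minus replicate 2 was 0.65, with 11 genes below 0, against 0.14 over the 52 inflammatory mediators, with 20 below 0. The stress list's median change from day 4 was 0.35 on replicate 1 and -0.26 on replicate 2.

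The 6 genes named as higher on replicate 2 were of mixed function. Selp, P-selectin, had 26.3 on replicate 1 and 792 on replicate 2. Gja1, connexin 43, had 105 and 716, and Kank3 had 154 and 1305. Id2, an inhibitor of helix-loop-helix factors, had 105 and 485, Cst7, cystatin F, had 87.9 and 428, and the interferon-induced gene Ifi27l2a had 291 and 1180.1. Replicate 1 minus replicate 2 had a median of -0.55 over 20 sterol biosynthesis genes (18 below 0), -0.51 over 41 DNA replication genes (37 below 0), -0.34 over 39 mitosis genes and -0.26 over 62 oxidative phosphorylation genes (56 below 0). The rise of the division lists was thus larger on replicate 2, with medians of 0.90 for mitosis and 0.82 for DNA replication, against 0.59 and 0.35 on replicate 1.

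The replicates also differed in how far they lay from day 4. The root mean square log2 difference from the RANKL day 4 mean was 0.43 for replicate 1 and 0.49 for replicate 2, and from the RANKL day 2 mean it was 0.60 and 0.49. Replicate 2 lay further from day 4 than replicate 1 in 18 of the 23 genes that rose and in 30 of the 42 that fell. In all 65 genes both replicates lay on the same side of both day 4 arrays. These genes were chosen by a test on the same arrays, so this does not measure how well the replicates agree.

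**Figure D4:**
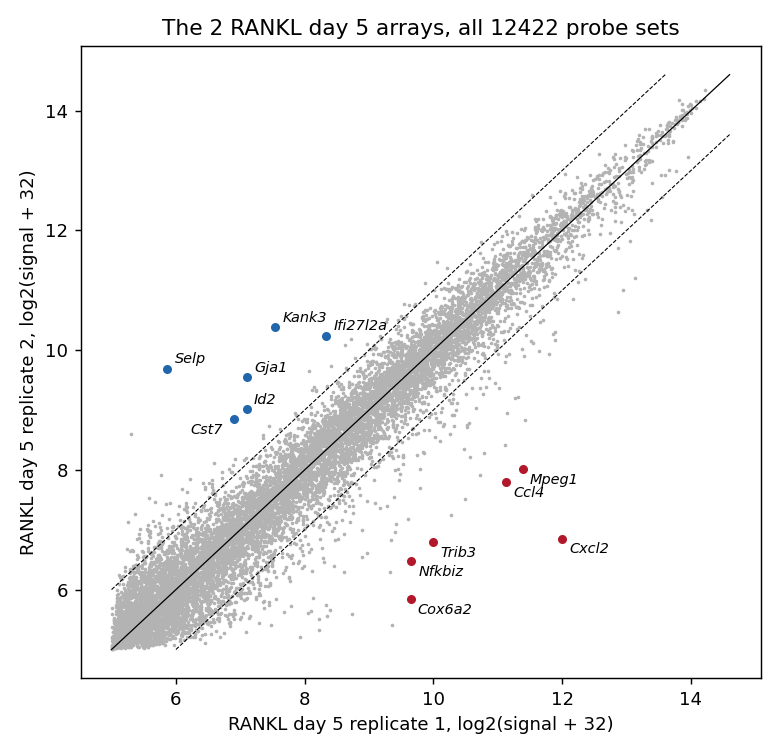
Signals of 12422 probe sets on RANKL day 5 replicate 1 (horizontal axis) and replicate 2 (vertical axis), both as log2(signal + 32). The full line marks equal signals and the broken lines a 2-fold difference; red points are the 6 named genes higher on replicate 1 and blue points the 6 higher on replicate 2.

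No gene on the lists of osteoclast transcription factors and of negative regulators of osteoclast formation passed in either direction. Of 21 osteoclast transcription factors 0 passed (median 0.17). Myc had 779 and 602 at day 5, against 214 and 363 at day 4 (1.20 ± 0.53, adjusted p = 0.404), and Prdm1, the repressor Blimp1, had 305 and 241, against 129 and 209.9 (0.62 ± 0.32). Fos, Mitf and the RANK gene Tnfrsf11a changed by -0.41 ± 0.24, 0.14 ± 0.25 and 0.38 ± 0.29. Of 14 negative regulators 0 passed, with a median of -0.25. Irf8, which restrains osteoclast formation, had 399 and 137, against 1066 and 784, with no overlap (-1.81 ± 0.39, adjusted p = 0.0792), and Id3 had 177 and 353, against 636 and 712 (-1.31 ± 0.27, adjusted p = 0.0605). The chemokine receptor gene Ccr1 (0.60 ± 0.25), the pyrophosphate transporter gene Ank (-0.46 ± 0.19), the integrin chain gene Itgav (0.34 ± 0.23), the protease gene Mmp14 (0.23 ± 0.25) and the cytokine gene Tnf (-0.43 ± 0.56) did not pass.

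Most markers of 5 other cell types were dim, but those of dendritic cells were not all so. Of 47 represented marker genes of erythroid, neutrophil, stromal, B and T cells 0 passed, and 32 had signals under 100 on all 4 arrays. Their summed signal was 3677 to 3951 on the day 5 arrays, against 3726 to 4147 on the day 4 arrays. Of 17 dendritic cell markers, 1 fell (Itgax, given above) and 0 rose, against 0.509% and 0.279% of all genes. On all 4 arrays 7 of the 17 had signals under 100. The summed signal of these 17 was 4807 and 2851 at day 5, against 4026 and 5098 at day 4. Cd83, one of them, had 1479 and 266 at day 5, against 959 and 1104 at day 4, and did not pass.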

How the data were processed

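Total RNA of RAW 264.7 cells was labelled with biotin and put on 1 array a sample. The deposited values are linear probe set intensities made by the authors with MAS5, per the submitters' processing notes; its version is not given in the sources used here. The 2% trimmed mean was 500 on each of the 15 arrays, so arrays had been scaled before deposit, and no further normalization was applied. Of 12488 probe sets, 66 manufacturer controls were left out. The platform annotation lists 1 gene for 10833 of the rest, several for 396 and none for 1193; these 2 kinds entered the tests without a name. The brightest probe set (mean log2 signal over all arrays) stands for its gene, and gene symbols were checked against RefSeq. The table holds 0 columns of other samples.

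One mean for each of 9 groups of treatment and day was fitted over all arrays to log2(signal + 32) (limma 3.58.1 under R 4.3.3; lmFit, eBayes with an intensity trend; 6 residual and 5.39 prior degrees of freedom). Tests were two-sided with Benjamini-Hochberg adjustment over 12422 probe sets and a threshold of 0.05; a group of 1 array takes its spread from the other groups. The procedure was tested on simulated data. The arrays, 40 gene lists (1261 genes, 986 represented) and tests were chosen with earlier results of these data known. Genes were named by a rule: the 12 largest changes in each direction that passed, up to 4 members of a list, 4 genes in each direction of the other comparisons, 6 in each direction of the day 5 replicate differences and a panel of 24 genes, of which 23 are represented. Other genes past the threshold were chosen after their values were seen. Alternatives were other pseudocounts, quantile normalization, a signal filter, no trend, array weights, a replicate block, the beta-actin covariate, fits on fewer arrays and each array left out.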

Additional observations from a re-analysis of the deposited data

Results flagged for a closer look

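Ccl2, which encodes a chemokine that draws monocytes, was the 1 gene whose change between day 4 and day 5 differed between RANKL cells and control cells. It had signals of 891 and 1326 in RANKL cells at day 5, against 1723 and 1285 at day 4, and 4786 in control cells at day 5, against 710.1 and 577 at day 4. The RANKL arrays of the 2 days overlapped, and the 1 control array at day 5 stood far above every other of these arrays. The change in RANKL cells less that in control cells was -3.28 ± 0.39 on the log2 scale (limma interaction, adjusted p = 0.0388). The call rests on 1 control array at day 5, and it was lost in 8 of 14 alternatives, in which the adjusted p ran over a range of 0.00732 to 0.283 in all.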

How the results depend on the processing

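The 79 probe sets that passed between day 4 and day 5 became 34 with array weights, 34 with no intensity trend and 147 in the upper 50% of probe sets by signal. They became 0 with the beta-actin ratio as a covariate, with only the 4 arrays and with only the 7 RANKL arrays, and 14 to 181 when 1 array was left out. Pseudocounts of 1 and 100 gave 76 and 63, and quantile normalization gave 60 (16 higher, 44 lower). With the replicate number as a block 36 passed, and the interaction with control cells gave 0. The numbers do not pair these arrays: over 15 pairs of groups, replicate deviations correlated at -0.17 to 0.12, and at 0.07 between RANKL day 4 and day 5.

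The interaction count of 1 became 0 with the beta-actin covariate, with no intensity trend and after quantile normalization, 3 with a pseudocount of 1, 2 in the upper 50% and 0 to 29 when 1 array was left out. The count in control cells of 5 became 16 with a pseudocount of 100. The median replicate difference at day 5 became 0.16 with that pseudocount, which damps dim probe sets. With the covariate the changes of Mmp9 (-0.079), Nfatc1 (-0.038) and Itgb3 (0.15) had the other sign. When 1 array was left out, the change of Tnf ran over -1.26 to 0.39 and that of Tnfrsf11a over -0.0072 to 0.77; Tnf turned to 0.37 without RANKL day 4 replicate 1 and to 0.39 without RANKL day 5 replicate 2, and Tnfrsf11a to -0.0072 without RANKL day 5 replicate 2. None of these genes passed. The cause of these differences was not tested. No depth is given for arrays, and log2 changes of genes near a signal of 32 are damped by the pseudocount.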

Other observations

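Some groups shifted in their median between day 4 and day 5 without a gene past the threshold. Over all genes represented, 56.4% had a positive change in RANKL cells, and 24.5% had both day 5 arrays above both day 4 arrays. Of 20 TCA cycle genes 19 had positive changes in RANKL cells, with a median of 0.29, and on 12 (60%) both day 5 arrays lay above both day 4 arrays. Of 30 proteasome genes 24 were positive (median 0.24), and of 29 heat shock and chaperone genes 20 were (median 0.22). Medians in control cells were 0.04 for the TCA cycle, 0.23 for the proteasome and -0.24 for heat shock and chaperone genes. Stip1, a co-chaperone of Hsp70 and Hsp90, had 828 and 943 at day 5, against 424 and 572 at day 4 (0.80 ± 0.20, adjusted p = 0.113). Cytosolic ribosomal protein genes went the other way in RANKL cells, with 25 of 31 negative and a median of -0.30, while their median in control cells was 0.17. On 20 of the 31 (64.5%, against 16.8% of all genes) both day 5 arrays lay below both day 4 arrays. The ribosomal protein genes are among the brightest of the arrays, and the part of the scaling at high signals was not tested for them.

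Some genes passed only through a probe set that is not their brightest. A probe set of Igf1, insulin-like growth factor 1, had 22.5 and 21.0 at day 5, against 236.9 and 190.0 at day 4, and passed as lower (-2.18 ± 0.20, limma adjusted p = 0.00152). The brightest probe set of Igf1 had 488 and 459.8, against 664 and 607 (-0.40 ± 0.18), and did not pass. A probe set of Bbs9, a subunit of the ciliary BBSome complex, had 216 and 420.3, against 24.6 and 18.4, and passed as higher (2.65 ± 0.47), where the brightest one gave 0.29 ± 0.28. Whether the probe sets of these 2 genes read different transcripts was not tested.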
